A study of Rattus norvegicus with 4 samples.

Results

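The D-type cyclins, their G1 kinases, the inhibitors of those kinases and the retinoblastoma gene were followed in rat neurospheres, the free-floating balls that dissociated retinal cells form in culture. The genes were Ccnd1, Ccnd2, Ccnd3, Cdk4, Cdk6, Cdkn1a, Cdkn1b, Cdkn1c, Cdkn2c and Rb1, 10 of the 14217 genes that the array could name. Every probe set annotated with exactly 1 symbol from that set was taken, which gave 15 of 31099 probe sets. Retinal cells came from pooled Sprague Dawley embryos at embryonic day 18 and were grown with epidermal growth factor (EGF) plus medium conditioned by endothelial cells (2 arrays, called conditioned medium here), or with EGF alone (2 arrays). EGF was therefore present in every culture, no group received medium that cells had not conditioned, and where the endothelial cells came from was not stated in the labels. The labels call the 2 samples of each condition biological replicates, and a further pool of embryos supplied the replicate of both conditions.

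In cycling cells a D cyclin joins Cdk4 or Cdk6, and the complex phosphorylates the retinoblastoma protein, which then releases E2F factors and lets the cell enter S phase. Mitogens such as EGF raise the D cyclins. INK4 proteins (Cdkn2c among them) block Cdk4 and Cdk6, and Cip/Kip proteins (Cdkn1a, Cdkn1b and Cdkn1c) block Cdk2 complexes and also bind D cyclin complexes. In the mouse retina cyclin D1 is the main D cyclin of progenitors, and Cdkn1b and Cdkn1c are known for their part in cell cycle exit.

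Values are log2 signals that the authors had summarised by RMA. The array medians were 6.84 and 6.56 log2 with conditioned medium, against 6.03 and 6.25 log2 with EGF alone, so the deposited values were quantile normalized, and every value below is on that scale unless it is called deposited or median-centred. Differences are conditioned medium minus EGF alone with limma's standard error (SE), and adjusted p-values are Benjamini-Hochberg values over the 21729 probe sets tested. A probe set is said to have risen or fallen where adjusted p was under 0.05 in the same direction under all 3 scalings, namely quantile normalized, as deposited and median-centred. With 2 arrays against 2, no exact permutation test of a single value can give a two-sided p under 0.333, and in bulk RNA fewer cells of a type cannot be told apart from less RNA per cell. The p-values measure the spread between these cultures only.

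Retinal identity was plain in both conditions: the progenitor factor Pax6 averaged 12.66 log2 with conditioned medium and 12.80 log2 with EGF alone, and Rax averaged 11.51 log2 with conditioned medium and 11.75 log2 with EGF alone. Other bright progenitor markers differed the other way. Sfrp2, which rose, averaged 12.87 log2 with conditioned medium and 12.24 log2 with EGF alone. Lhx2, which was not called, averaged 12.28 log2 with conditioned medium and 11.73 log2 with EGF alone. Of the tested markers, 6 of 10 for microglia, 2 of 7 for endothelial cells, 8 of 9 for pericytes and fibroblasts and 5 of 10 for retinal progenitors rose, and 7 of 9 for photoreceptors fell. Among all 11496 tested genes, read like the markers through the brightest probe set, 8.52% rose and 1.78% fell. The summed linear signal of the microglia markers lay between 947 and 1014 with conditioned medium, against 541 to 587 with EGF alone, and that of the pericyte and fibroblast markers between 2375 and 2440, against 791 to 920 with EGF alone. That of the photoreceptor markers lay between 10578 and 11092 with conditioned medium, against 19261 to 20753 with EGF alone. Among endothelial markers Tie1, Tek, Emcn and Pecam1 lay under the brightness limit (4.76 log2, deposited) on every array, and Dcn and Lum did so among the fibroblast markers. That limit was set on the mean of all 4 arrays. Some risen markers had deposited means under it with EGF alone, so only their higher values with conditioned medium brought them into the test. They were Aif1 (4.46 log2), C1qc (4.22) and Ptprc (4.21) for microglia, Tagln (4.25) and Twist1 (4.70) for pericytes and fibroblasts, and endothelial Flt1 (3.49). The gap between 3' and 5' actin control probe sets, which widens with RNA degradation, was 1.54 and 1.37 log2 with conditioned medium, against 1.99 and 2.08 log2 with EGF alone. The part of these differences in the results below was not tested.

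Of the 15 probe sets, 14 were bright enough to be tested. With conditioned medium, 5 of the 14 rose and 0 fell: all 3 probe sets of cyclin D1, the single probe set of cyclin D3 and that of the inhibitor Cdkn1c. Among all tested probe sets 7.27% rose and 1.51% fell under the same rule. The kinase gene Cdk4 and the pocket protein gene Rb1 were not called. After quantile normalization alone, 8 of the 14 were higher (12.6% of all tested) and 0 were lower (12.9% of all tested), and 0 had an unadjusted limma p under 0.05 in the lower direction.

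Cyclin D1, encoded on chromosome 1 and induced by mitogens such as EGF, had the largest differences of the 10 genes. Probe set 1371150_at read 11.23 and 11.22 log2 with conditioned medium, against 9.44 and 9.32 log2 with EGF alone. Probe set 1383075_at read 12.45 and 12.34 log2 with conditioned medium, against 10.86 and 10.82 log2 with EGF alone. Probe set 1371643_at read 12.56 and 12.61 log2 with conditioned medium, against 11.13 and 11.34 log2 with EGF alone. In each of the 3, both conditioned-medium arrays lay more than 1 log2 above both EGF arrays. Ccnd1 rose 3.59-fold on 1371150_at (1.84 ± 0.08 log2 SE, limma adjusted p = 8.61e-07), 2.94-fold on 1383075_at (1.56 ± 0.07 log2 SE, adjusted p = 8.61e-07) and 2.56-fold on 1371643_at (1.35 ± 0.08 log2 SE, adjusted p = 4.51e-06). Ordered by difference from the highest, the 3 probe sets stood at places 50, 105 and 175 of the 21729. The 3 estimates for Ccnd1 run from 1.35 to 1.84 log2, so they share a direction more closely than a size.

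Cyclin D3, encoded on chromosome 9, which pairs with the same kinases and is best known in lymphoid and differentiating cells, rose too. Ccnd3 read 10.13 and 10.26 log2 with conditioned medium, against 8.88 and 9.06 log2 with EGF alone. The groups stood apart by far more than the arrays within either group. The difference was 1.22 ± 0.10 log2 (SE, limma adjusted p = 2.84e-05), a 2.33-fold rise.

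Cyclin D2, encoded on chromosome 4, which is prominent in other embryonic neural progenitors, was dim and uneven. Ccnd2 read 6.24 and 6.15 log2 with conditioned medium, against 5.89 and 5.09 log2 with EGF alone. The groups did not overlap, but the 2 EGF arrays differed by more than the upper one did from the conditioned-medium arrays. The difference of 0.71 ± 0.27 log2 (SE) had limma adjusted p = 0.0790 and was not called, although it passed as deposited (1.34 log2, adjusted p = 4.48e-04) and median-centred (0.77 log2, adjusted p = 0.0407). Without EGF replicate 1 the Ccnd2 difference was 1.04 log2, and without EGF replicate 2 it was 0.30 log2.

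**Figure D1:**
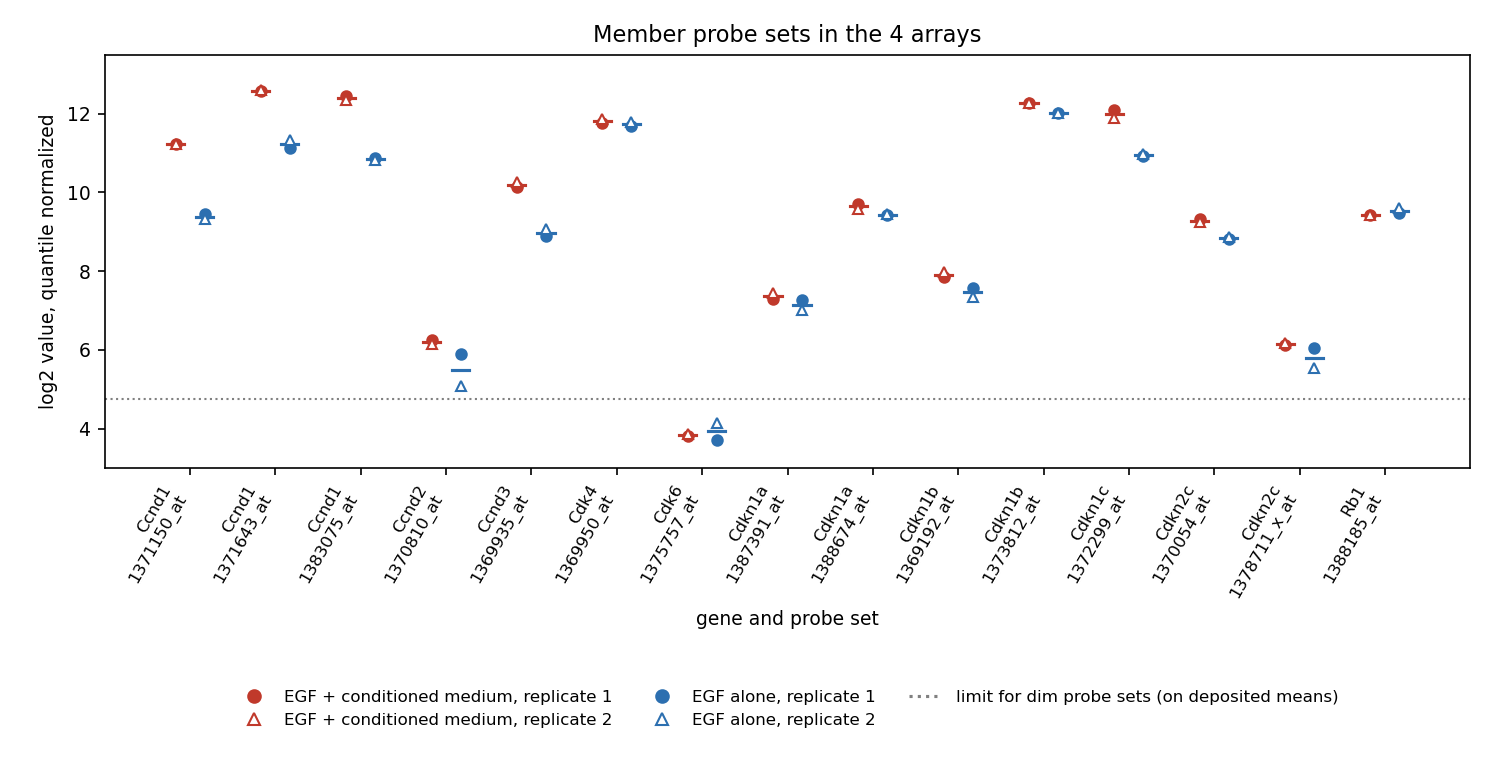
Quantile normalized log2 value (vertical axis) of the 15 probe sets (horizontal axis) in the 4 arrays, with EGF plus conditioned medium in red at the left of each pair and EGF alone in blue at the right; circles are replicate 1, open triangles replicate 2 and bars the group means. The 3 Ccnd1 probe sets, Ccnd3 and Cdkn1c stand apart between the conditions, whereas Cdk4 overlaps (11.77 and 11.86 log2 with conditioned medium, 11.69 and 11.79 log2 with EGF alone) and Cdk6 lies below the brightness needed for a test.

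The catalytic partners of the D cyclins were not called. Cdk4 (chromosome 7) read 11.77 and 11.86 log2 with conditioned medium, against 11.69 and 11.79 log2 with EGF alone. The 2 groups overlapped. The difference was 0.07 ± 0.07 log2 (SE, limma adjusted p = 0.460), with a 95% interval of -0.08 to 0.23 log2, and its sign depended on the scaling (0.38 log2 as deposited, -0.18 log2 median-centred). Cdk6 (chromosome 4) had 1 probe set, which was too dim to be tested: 3.82 and 3.86 log2 with conditioned medium, against 3.71 and 4.15 log2 with EGF alone. Both readings with conditioned medium lay between the 2 EGF readings on this scale. As deposited they lay above both: 4.36 and 3.99 log2, against 3.29 and 3.95 log2 with EGF alone.

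The change of the cyclins relative to their kinase can be read within each array, where a constant shift of the array cancels. The ratio of the brightest Ccnd1 probe set to Cdk4 was higher by 1.28 log2 with conditioned medium as deposited, while the 2 conditioned-medium arrays agreed within 0.04 log2 and the 2 EGF arrays within 0.12 log2. For Ccnd3 over Cdk4 the ratio was higher by 1.17 log2, with arrays within 0.05 and 0.10 log2 of each other. The ratio of Ccnd1 to Ccnd3 was higher by 0.11 log2 as deposited, a small difference. The conditions did not overlap in it, nor in most of the pairs computed. Every ratio with Ccnd1 rests on its brightest probe set, 1371643_at, which had the smallest Ccnd1 difference. As deposited that difference was 1.67 log2, against 1.87 log2 on 1383075_at and 2.17 log2 on 1371150_at, so the size of these ratios depends on the probe set. The ratio of Ccnd2 to Cdk4 was higher by 0.96 log2 as deposited but by 0.63 log2 after quantile normalization, and the EGF arrays differed by 0.79 log2 as deposited. In all, 12 such pairs of members were computed, chosen after the values were seen. A ratio of this kind shows unequal change, not that Cdk4 stayed level.

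Promoters were available in the RefSeq table of assembly GRCr8 for 6 of the 10 genes: Ccnd3, Cdk4, Cdkn1a, Cdkn1b, Cdkn2c and Rb1. Those of Ccnd3, which rose, and of its partner Cdk4, which was not called, are shown to set a risen member beside one that was not. The 210 bases before an annotated start of transcription are given 5′ to 3′ on the strand of the gene, for Ccnd3 from chr9:20897876-20898085 (minus strand, from 1 transcript whose start lies within the gene's span) and for Cdk4 from chr7:64771243-64771452 (plus strand). Capitals mark matches, on either strand, to the motifs searched:
Ccnd3: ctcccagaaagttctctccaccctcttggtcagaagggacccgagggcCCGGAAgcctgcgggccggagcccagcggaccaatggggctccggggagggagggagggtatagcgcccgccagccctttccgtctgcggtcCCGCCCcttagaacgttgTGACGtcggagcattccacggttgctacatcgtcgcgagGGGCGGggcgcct
Cdk4: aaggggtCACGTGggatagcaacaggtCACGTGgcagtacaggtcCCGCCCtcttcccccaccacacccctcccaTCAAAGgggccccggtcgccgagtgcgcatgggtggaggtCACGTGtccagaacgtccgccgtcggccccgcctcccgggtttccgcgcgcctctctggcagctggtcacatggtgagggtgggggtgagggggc
In these windows, and in the 250 bases before the start of all 27457 genes of the table, 8 motifs were searched on both strands: the E2F motif TTTNGCGC, the cyclic AMP response element TGACGTCA and its core TGACG (which lies inside TGACGTCA), the AP-1 motif TGANTCA, the TCF/LEF motif CTTTGA, the GC box GGGCGG, the ETS core CCGGAA and the E-box CACGTG. Ccnd3 held the ETS core (in 13.4% of all promoters), the core TGACG (19.0%) and the GC box (32.4%), the last in 2 copies. Cdk4 held the E-box, the motif of Myc and related factors, in 3 copies, against 5.79% of all promoters with any copy and 0.0583% with at least 3, and it held the TCF/LEF motif (13.8%) and a GC box. A match is a run of letters and not a shown binding site. In both, E2F (1.11% of all promoters) and AP-1 (6.36%) had no match, which says only that these letters are not in this window.

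Among the inhibitors, only Cdkn1c rose under all 3 scalings. Cdkn1c (chromosome 1) encodes p57, a Cip/Kip protein that is expressed from the maternal allele and marks cells leaving the cycle in several embryonic tissues. It read 12.09 and 11.89 log2 with conditioned medium, against 10.93 and 10.98 log2 with EGF alone. Both conditioned-medium arrays lay above both EGF arrays by over 0.9 log2. The difference was 1.03 ± 0.08 log2 (SE, limma adjusted p = 2.52e-05), a 2.05-fold rise, at place 407 of the 21729.

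Cdkn1b (p27, chromosome 4), the Cip/Kip inhibitor that accumulates as retinal progenitors stop dividing, differed less. Its brighter probe set 1373812_at read 12.27 and 12.26 log2 with conditioned medium, against 12.01 and 12.01 log2 with EGF alone. Its dimmer probe set 1369192_at read 7.84 and 7.97 log2 with conditioned medium, against 7.58 and 7.35 log2 with EGF alone. The groups did not overlap in either. The differences of Cdkn1b were 0.25 ± 0.06 log2 (SE, limma adjusted p = 0.0119) and 0.44 ± 0.13 log2 (SE, adjusted p = 0.0308), but with median-centred arrays they were -0.01 log2 (adjusted p = 0.926) and 0.30 log2 (adjusted p = 0.130), so neither was called.

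Cdkn1a (p21, chromosome 20), the Cip/Kip inhibitor that p53 induces, was not called on either probe set. Probe set 1388674_at read 9.71 and 9.59 log2 with conditioned medium, against 9.42 and 9.45 log2 with EGF alone, a difference of 0.21 ± 0.09 log2 (SE, limma adjusted p = 0.0988). Probe set 1387391_at read 7.30 and 7.45 log2 with conditioned medium, against 7.27 and 7.03 log2 with EGF alone, a difference of 0.23 ± 0.14 log2 (SE, adjusted p = 0.270). The 95% intervals of the Cdkn1a differences were 0.02 to 0.41 log2 for 1388674_at and -0.09 to 0.55 log2 for 1387391_at, before any adjustment. Median-centring turned the first to -0.03 log2.

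Cdkn2c (p18, chromosome 5), the INK4 inhibitor of the set, gave 1 bright and 1 dim probe set. Probe set 1370054_at read 9.31 and 9.25 log2 with conditioned medium, against 8.83 and 8.87 log2 with EGF alone. The groups were apart by several times the spread within each, and the difference was 0.43 ± 0.09 log2 (SE, limma adjusted p = 6.06e-03). It was not called, because median-centred arrays gave 0.21 log2 (adjusted p = 0.129). Probe set 1378711_x_at of Cdkn2c, whose suffix marks probes that may also bind other transcripts, read 6.13 and 6.17 log2 with conditioned medium, against 6.05 and 5.55 log2 with EGF alone (0.35 ± 0.22 log2 SE, adjusted p = 0.268).

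Ratios within arrays restate the deposited differences between Cdkn1c and its relatives. The size of each ratio follows from those differences, so only its spread between arrays is added. As deposited, the ratio of Cdkn1c to the brightest probe set of Cdkn1b was higher by 0.78 log2 with conditioned medium, and that of Cdkn1c to the brightest of Cdkn1a by 0.79 log2. Arrays of the same condition agreed within 0.17 log2 for the Cdkn1b ratio and within 0.05 log2 for the Cdkn1a ratio. The ratio of Ccnd1 to Cdkn1c was higher by 0.34 log2, and that of Ccnd1 to Cdkn1b by 1.11 log2. For the ratio of Ccnd1 to Cdkn1c, arrays differed by 0.21 log2 with conditioned medium and by 0.17 log2 with EGF alone. For that of Ccnd1 to Cdkn1b they differed by 0.04 and 0.24 log2. None of the 4 ratios overlapped between the conditions, but neither did most of the 12 pairs computed. Those pairs were chosen after the values were seen, so the lack of overlap does not set these 4 apart.

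Rb1 (chromosome 15), whose protein the D cyclin kinases phosphorylate and which holds E2F factors inactive, read 9.42 and 9.42 log2 with conditioned medium, against 9.48 and 9.60 log2 with EGF alone. Both conditioned-medium arrays lay just below both EGF arrays. The difference was -0.11 ± 0.09 log2 (SE, limma adjusted p = 0.365), and its sign and call moved with the scaling: 0.22 log2 as deposited (adjusted p = 0.310) and -0.35 log2 median-centred (adjusted p = 0.0185). Its 95% interval on the quantile normalized scale was -0.31 to 0.08 log2.

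**Figure D2:**
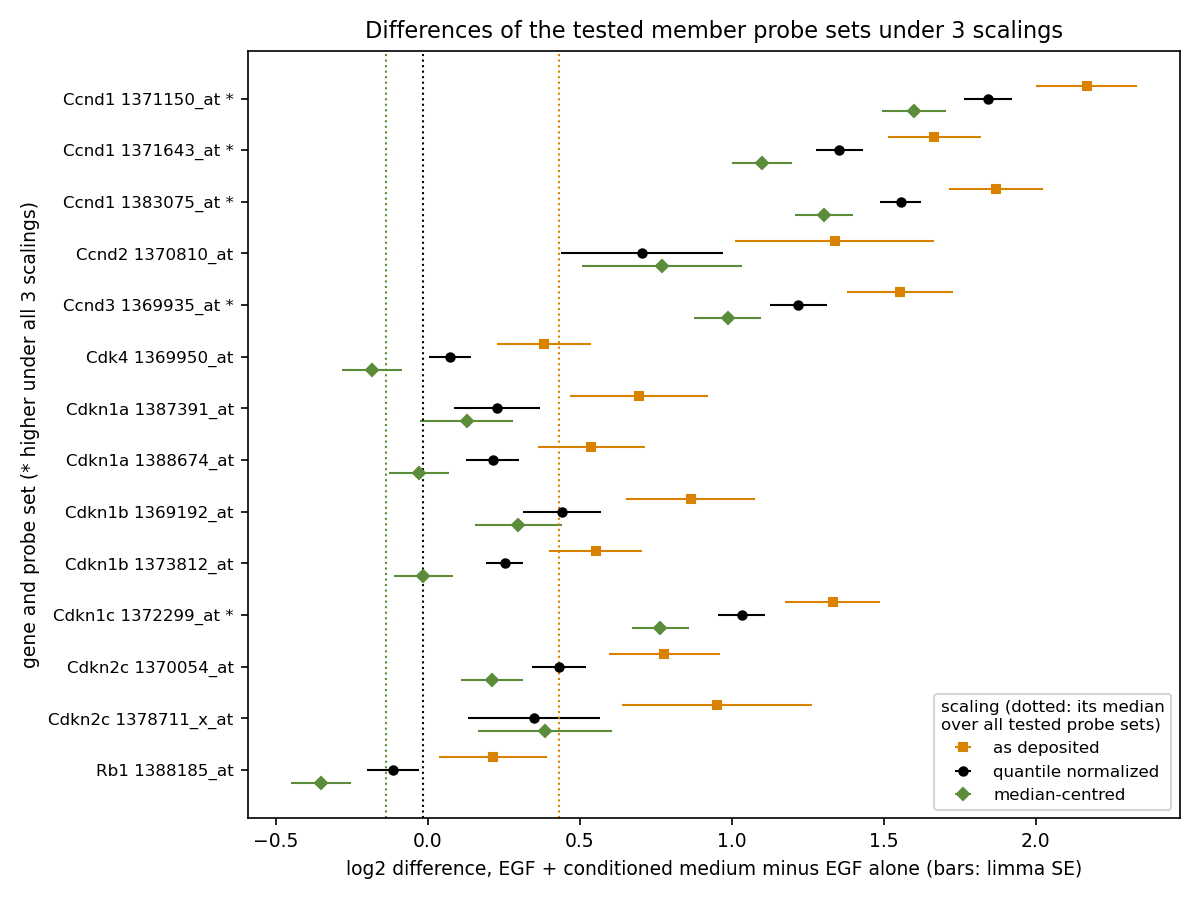
Log2 difference of conditioned medium minus EGF alone (horizontal axis, bars are limma's SE) for the 14 tested probe sets (vertical axis) as deposited (orange squares), quantile normalized (black circles) and median-centred (green diamonds); dotted lines give the median of all 21729 probe sets under each scaling, 0.43, -0.01 and -0.14 log2. Stars mark the 5 probe sets that rose, which keep to the right of every dotted line. Cdk4, Rb1, Cdkn1a 1388674_at and Cdkn1b 1373812_at lie on both sides of 0.

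How many members count as higher depended on the scaling. As deposited, 13 of the 14 were higher, against 38.3% of all tested probe sets, with a median of 0.91 log2 over the 14 and of 0.43 log2 over all. Median-centred, 6 were higher (8.42% of all) and Rb1 alone was lower (25.6% of all), with medians of 0.34 and -0.14 log2. Quantile normalized, the median of the 14 was 0.44 log2, against -0.01 log2 for all tested probe sets. In 12 of the 14 both conditioned-medium arrays lay above both EGF arrays (30.2% of all tested), and in Rb1 alone both lay below (33.2% of all). As deposited 13 lay above (69.7% of all) and 0 below (4.84% of all), and median-centred 9 lay above (21.7% of all) and 2, Cdk4 and Rb1, below (46.4% of all). The 5 called probe sets passed under each of these scalings by the definition of a call.

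Under limma's ordinary moderation the calls of the 5 were lost without either conditioned-medium array and kept without either EGF array. Without conditioned-medium replicate 1, 0 of all tested probe sets passed (lowest limma adjusted p = 0.0718 on the quantile normalized scale, with 5488 at an unadjusted p under 0.05), and without conditioned-medium replicate 2, 0 passed (lowest adjusted p = 0.0538, with 5790 at an unadjusted p under 0.05). With 1 array left out, the condition that kept both gave some probe sets equal values after quantile normalization and so a spread of 0: 250 and 207 without conditioned-medium replicates 1 and 2, and 271 and 287 without EGF replicates 1 and 2. Such ties were thus present with and without calls, and the cause of the lost calls was not tested. With limma's robust moderation, added after the data were seen, all 5 passed whichever array was left out (highest adjusted p = 1.18e-04), and their differences without any 1 array stayed between 0.94 and 1.91 log2.

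Around these genes, 9 lists of other cell cycle genes, from G1 regulators to S phase, mitosis and p53 target genes, were read through the brightest probe set of each gene. Of 89 tested genes 29 rose and 0 fell, where 8.52% of the 11496 tested genes rose and 1.78% fell. By list, the genes that rose were 16 of 18 mitosis genes, 5 of 16 E2F targets of S phase, 4 of 11 transcription factors known to act on cyclin D genes, 2 of 6 among the E and A cyclins with Cdk2 and Cdc25a, and 2 of 11 pocket proteins and E2F factors. In the remaining lists, of 2, 4, 10 and 11 tested genes, 0 rose. Without the mitosis list 13 of 71 genes rose, with a median of 0.25 log2. When limma was run without its intensity trend, 19 of the 89 genes were called. The median of the 89 genes was 0.35 log2, against 0.00 log2 for all tested genes. These lists were chosen with earlier results of the same data known. Beside them, 2 of 8 markers of Muller glia and astrocytes, 6 of 10 microglia and 8 of 9 pericyte and fibroblast markers rose as well. Quantile normalized alone, 3 of the 8 glial markers were higher and 1 was lower. The lower one was Rlbp1 (-0.70 ± 0.08 log2 SE, limma adjusted p = 2.27e-04), which was not called because as deposited its adjusted p was 0.0623.

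Downstream of the D cyclins, Cdk2, the kinase of the E and A cyclins, rose by 0.58 ± 0.10 log2 (SE, limma adjusted p = 2.27e-03). Cyclin A2, Ccna2, its S phase partner, read 10.75 and 10.59 log2 with conditioned medium, against 10.00 and 9.96 log2 with EGF alone (0.69 ± 0.08 log2 SE, adjusted p = 3.06e-04). E2f1, an activator of S phase genes, rose by 0.62 ± 0.09 log2 (SE) and E2f6, a repressor of the family, by 0.60 ± 0.09 log2 (SE). Of the E2F targets, the replication factors Gins1 (0.81 ± 0.11 log2 SE), Mcm5 (0.73 ± 0.10), Mcm3 (0.59 ± 0.10) and Cdt1 (0.57 ± 0.08) rose, as did the thymidine kinase Tk1 (0.69 ± 0.13), the last named after its values were seen. Some of these calls were lost under other settings, at differences that were in part about as large: without EGF replicate 2, Cdk2 (0.48 log2), E2f6 (0.52 log2), Cdt1 (0.55 log2), Mcm5 (0.71 log2), Mcm3 (0.60 log2) and Tk1 (0.77 log2) were not called, and without EGF replicate 1, E2f1 (0.55 log2), Mcm3 (0.57 log2) and Tk1 (0.61 log2) were not. Without the intensity trend Cdk2, E2f1, E2f6, Cdt1, Mcm3 and Tk1 were not called, and with the replicate number as a block Cdk2 and Cdt1 were not. Of the mitosis genes the kinase Aurkb (1.03 ± 0.08 log2 SE), the anaphase activator Cdc20 (0.90 ± 0.08), cyclin B2, Ccnb2 (0.90 ± 0.08), and the mitotic kinase Cdk1 (0.75 ± 0.07) had the smallest adjusted p. Cdc20 had 5 tested probe sets, between 0.19 and 0.90 log2, of which 2 rose; the value above is that of the brightest.

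Upstream, 4 of 11 transcription factors known to act on cyclin D genes rose. After quantile normalization alone 5 of the 11 were higher and 1 was lower, where 15.1% and 13.4% of all tested genes were. The lower factor was Mycn (-0.40 ± 0.07 log2 SE, limma adjusted p = 3.00e-03). It was not called, because as deposited it differed by -0.08 log2 (adjusted p = 0.704). Egr1, an immediate early factor, read 11.90 and 11.87 log2 with conditioned medium, against 10.81 and 10.98 log2 with EGF alone (0.98 ± 0.08 log2 SE, limma adjusted p = 2.54e-05). Tcf7l2 (1.10 ± 0.10 log2 SE) and Lef1 (1.09 ± 0.11 log2 SE), nuclear effectors of Wnt signals, and Fos (0.91 ± 0.12 log2 SE), a subunit of AP-1, rose by like amounts on their brightest probe sets. The 4 tested probe sets of Tcf7l2 lay between 0.15 and 1.10 log2 and 3 rose, and both of Lef1 rose, by 0.79 and 1.09 log2. In all 4 both conditioned-medium arrays lay above both EGF arrays, as in 30.2% of all tested probe sets. Since the 4 were named for their calls, this adds little to those calls.

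In 4 lists no gene was called. Of the other INK4 inhibitors, Cdkn2d differed by 0.25 ± 0.08 log2 (SE, limma adjusted p = 0.0503) and Cdkn2b by 0.36 ± 0.27 log2 (SE, adjusted p = 0.368), and Cdkn2a was too dim to be tested. Of the CDK-activating kinase and the kinase chaperone Cdc37, cyclin H, Ccnh, differed by 0.08 ± 0.09 log2 (SE) and the assembly factor Mnat1 by -0.07 ± 0.10 log2 (SE). Of 10 genes for the turnover of D cyclins and Kip inhibitors, the ubiquitin ligase Rnf123 differed by -0.36 ± 0.09 log2 (SE, adjusted p = 0.0176) and Cks1b, the cofactor that brings Cdkn1b to its ligase, by 0.35 ± 0.09 log2 (SE, adjusted p = 0.0196). Both failed to pass under all 3 scalings. Of 11 other p53 target genes, Phlda3 (0.31 ± 0.12 log2 SE, adjusted p = 0.0791) and Sesn2 (0.26 ± 0.11 log2 SE, adjusted p = 0.115) came nearest, and neither was called.

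**Figure D3:**
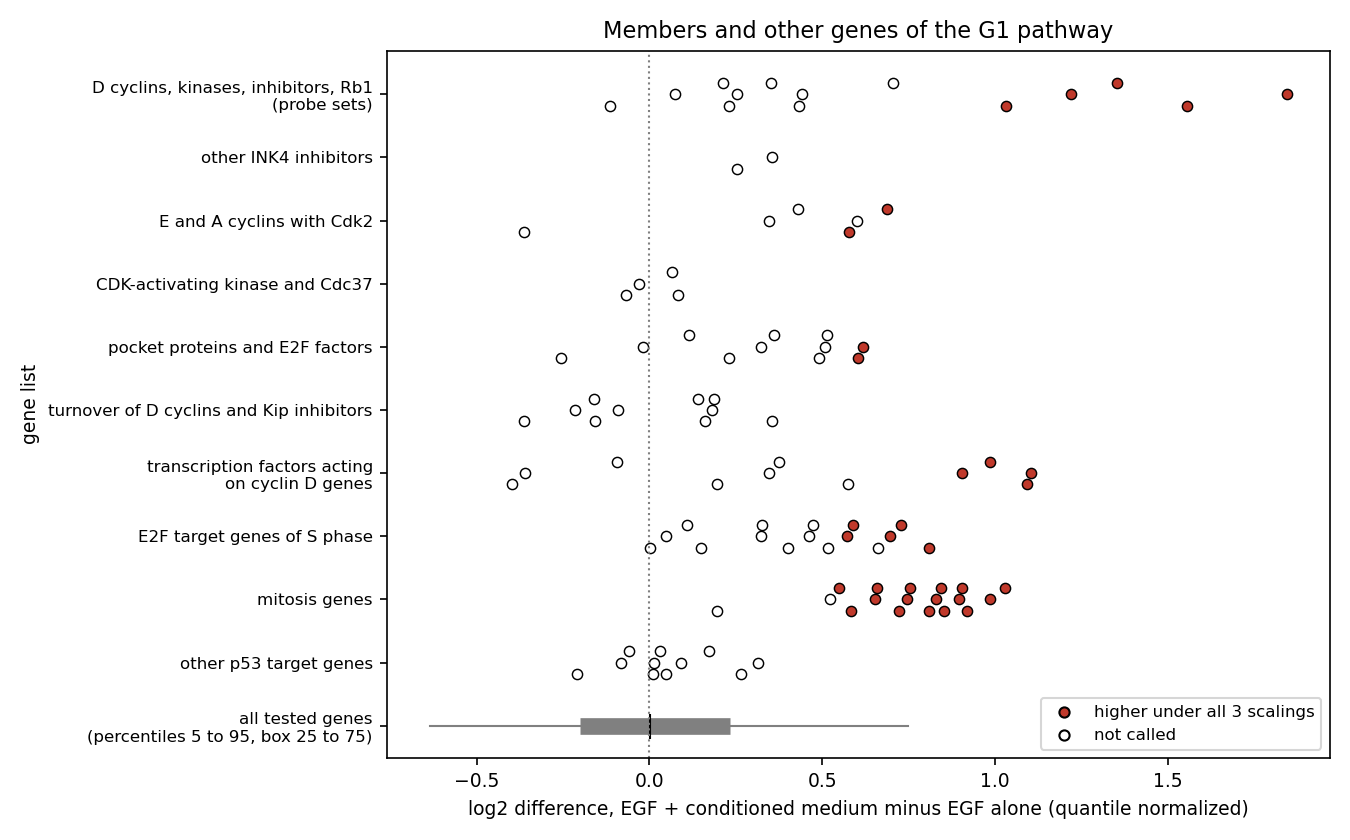
Quantile normalized log2 difference of conditioned medium minus EGF alone (horizontal axis) for each tested gene of 9 lists and for the 14 tested probe sets of the D cyclins, G1 kinases, inhibitors and Rb1 (vertical axis, 1 row a list); filled points rose under all 3 scalings, open points were not called, and the grey line gives percentiles 5 to 95 of all 11496 tested genes. The 5 filled points of the top row lie between 1.03 and 1.84 log2, beyond the 0.75 log2 of percentile 95, and the row of mitosis genes holds 16 filled points of 18.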

How the data were processed

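Total RNA of 4 cultures, 2 with EGF plus endothelial conditioned medium and 2 with EGF alone, was measured on 4 Affymetrix Rat 230 2.0 arrays. Per the labels, the authors made the deposited log2 values by RMA in GenePattern. The submitters' processing notes name RMA with no version or options. The values are uncentred, and their scale between arrays was not equal. Groups came from the sample titles. Probe sets were named through the platform annotation: 20826 had 1 symbol, 436 several and 9837 none or were among the 57 array controls. Of the 20826, 20758 matched RefSeq (GRCr8) by gene identifier and 0 symbols changed. Probe sets in the lowest 30% of mean deposited value (under 4.76 log2) were left out, and 21729 were tested in R 4.3.3 by limma 3.58.1 (lmFit, eBayes with an intensity trend, two-sided, no block, Benjamini-Hochberg). As deposited, limma took each spread wholly from the trend, so those very small p-values rest on pooling. The 10 genes, the lists and the rule of 3 scalings were chosen with earlier results of these data known. Named genes were every member probe set and, per list, up to 4 called genes with the smallest adjusted p, or 2 where none was called; those of the closing observations were chosen after their values were seen. Marker lists for bipolar, ganglion, amacrine and horizontal, glial, lens and pigment epithelium cells were read too: 0 of 5, 1 of 5, 0 of 11, 2 of 8, 1 of 6 and 1 of 4 tested genes rose, and 1, 0, 2, 0, 0 and 0 fell. Of all 11496 tested genes 8.52% rose and 1.78% fell, and lists this short cannot be told from those shares by 1 call. The number of arrays limits the precision. The procedure was tested on simulated data.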

Additional observations from a re-analysis of the deposited data

How the results depend on the processing

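Over all probe sets 1579 were called higher and 328 lower under all 3 scalings, against 2729 and 2810 quantile normalized, 8326 higher as deposited, 5567 lower median-centred, and 5120 higher when arrays were centred on hybridization controls (an alternative added after seeing the data). The member probe sets called higher numbered 5, against 8 quantile normalized, 13 as deposited and 11 with hybridization controls, and 1 was lower median-centred. Of the other G1 genes 29 were higher, against 66 as deposited, 53 with hybridization controls and 19 without the intensity trend, and 4 were lower quantile normalized and 12 median-centred. Without the trend 210 probe sets were lower. Signs turned median-centred for Cdk4 (-0.18), Cdkn1a 1388674_at (-0.028) and Cdkn1b 1373812_at (-0.014), and for Rb1 as deposited (0.22) and with hybridization controls (0.11). The cause of these moves was not tested.

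With the replicate number as a block 5 member probe sets and 27 other G1 genes were higher. Over all probe sets 1443 were then higher and 45 lower. The deviations of same-numbered arrays correlated at -0.12 as deposited and -0.05 quantile normalized over 2 pairs, and the labels tie neither number to a pool of embryos. The block kept the 5 member calls, but Cdk2 and Cdt1 were among the other G1 genes it lost. With the numbers crossed (added), 717 probe sets were lower.

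Without each array in turn, called probe sets numbered 0 to 1076 higher and 0 to 120 lower, members 0 to 5 and other G1 genes 0 to 27, the zeros coming without either conditioned-medium array. The zeros arose on the quantile normalized scale, while some probe sets still passed as deposited and median-centred. Tied values removed the spread of 250 and 207 probe sets without a conditioned-medium array and of 271 and 287 without an EGF array. The cause of the zeros was not tested. The lone array of a condition is then assumed to vary like the other pair. With robust moderation (added) the ranges were 811 to 1799 higher (891 without conditioned-medium replicate 1), 79 to 171 lower (92 and 130 between), 5 to 7 members and 21 to 30 other G1 genes. Leaving out the dimmest 50% of probe sets removed 2 of the 14 member probe sets and left 5 higher, with 1271 higher over all probe sets. With no filter (1526 higher over all), and with robust moderation of all arrays (1621 higher over all), 5 members were higher too. A fit over 1 probe set per gene called 4 member genes higher, against the 3 genes that the 5 probe sets stand for. Dim signal limits what Ccnd2, Cdk6 and Cdkn2c 1378711_x_at can show.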

Other observations

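Besides Tcf7l2 and Cdc20, several cell cycle genes gave unlike values on different probe sets. Mybl2, a B-Myb factor induced by E2F, differed by 0.00 log2 on its brightest probe set and by 0.64 log2 on the other, which rose under all 3 scalings. Ctnnb1, beta-catenin, had 3 probe sets between -0.39 and 0.31 log2, Ccne2, a cyclin E, had 2 between -0.08 and 0.60 log2, and the ligase Rnf123 had 3 between -0.36 and 0.60 log2. The 3 probe sets of the p53 antagonist Mdm2 stayed between -0.06 and 0.00 log2, and both of Cdk2 rose, by 0.56 and 0.58 log2.

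The 18 hybridization control probe sets, whose targets are added to each array in set amounts, differed by a median of 0.14 log2 between conditioned medium and EGF alone as deposited (0.00 to 0.43 log2), and the 27 poly-A control probe sets by 0.14 log2 (-0.21 to 0.81 log2). The median over all tested probe sets was 0.43 log2 on the same scale.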
